A study of Homo sapiens with 4 samples.

Results

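The aryl hydrocarbon receptor (AHR) pathway was followed here through 7 genes, AHR, AHRR, ARNT, TIPARP, CYP1A1, CYP1B1 and NQO1, in A549 cells with and without an induced A-FOS. The 7 were picked by symbol, each matched 1 Ensembl gene, and they are 7 of the 58051 genes counted. PolyA RNA was sequenced from A549, an established human lung carcinoma line, into which an A-FOS gene had been inserted with piggyBac. The minus Dox group had 2 libraries of untreated cells, and the plus Dox group had 2 libraries of cells given 1 μg/mL doxycycline, the drug that turns the inserted gene on. Both groups carry the insertion, which the series' design text calls random although the titles say knock-in, and the labels name neither a clone nor separate cultures. The p-values therefore measure the spread between these libraries, which may be technical, and induction of A-FOS and exposure to doxycycline cannot be told apart. The A-FOS protein acts as a dominant negative: it binds JUN proteins and holds them off DNA, and so is used to block AP-1 transcription factors. Whether AP-1 was blocked in these cells was not measured here, and the comparison is of RNA levels with and without doxycycline.

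AHR is a ligand-activated transcription factor of the bHLH-PAS family. It waits in the cytoplasm with HSP90 and other chaperones, binds planar aromatic compounds such as dioxins, combustion products and tryptophan derivatives, and then enters the nucleus and pairs with ARNT. The pair binds xenobiotic response elements, whose core is GCGTG, and turns on CYP1A1 and CYP1B1, which oxidise such compounds, and AHRR and TIPARP, which hold the receptor back. NQO1 reduces quinones to hydroquinones, and in lung cells it answers both to AHR and to the antioxidant factor NRF2.

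With doxycycline the receptor gene AHR rose 1.97-fold, its repressor AHRR rose 1.39-fold and the monooxygenase CYP1B1 rose 1.31-fold, while NQO1 fell to 0.724 of its level. The fall of NQO1 turned to 0.115 on the log2 scale once a trend over GC content, transcript length and abundance was taken out. That trend was fitted to these same fold changes, so it also takes out real changes that run with those features. The rise of AHRR did not pass in DESeq2 (adjusted p = 0.159). ARNT, TIPARP and CYP1A1 did not pass the test. All 7 genes passed the filter on low counts. In all, 3 of 7 rose and 1 fell, where a gene counts as changed at an adjusted p under 0.05 in edgeR (quasi-likelihood fit, Benjamini-Hochberg correction across 18046 tested genes). Of all tested genes 56.9% passed in either direction, 28.4% as higher and 28.4% as lower, so the share of pathway genes that passed, 57.1%, lay at the background.

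The receptor's gene, its repressor's gene and both end-point enzymes CYP1A1 and NQO1 are shown by the sequence just before their start, because CYP1A1 and AHRR are textbook XRE-driven genes and AHR and NQO1 had the lowest adjusted p-values of the 7. RefSeq promoter windows (GRCh38.p14) were matched for 6 of the 7 genes, in 9 windows, and the 250 bases before the start are printed 5′ to 3′ on the gene's strand. The windows lie at chr7:17298402-17298651 (plus strand, AHR), chr5:321464-321713 (plus strand, the first of 2 AHRR windows), chr15:74725529-74725778 (minus strand, CYP1A1) and chr16:69726561-69726810 (minus strand, NQO1). Capitals mark a match to the XRE core GCGTG, the AP-1 site TGANTCA or the antioxidant element core TGACNNNGC, searched on both strands.
AHR: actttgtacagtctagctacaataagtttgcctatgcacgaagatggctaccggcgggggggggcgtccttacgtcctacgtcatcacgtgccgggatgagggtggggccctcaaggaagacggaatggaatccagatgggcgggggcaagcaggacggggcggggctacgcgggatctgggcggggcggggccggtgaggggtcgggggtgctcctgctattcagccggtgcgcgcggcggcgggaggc
AHRR: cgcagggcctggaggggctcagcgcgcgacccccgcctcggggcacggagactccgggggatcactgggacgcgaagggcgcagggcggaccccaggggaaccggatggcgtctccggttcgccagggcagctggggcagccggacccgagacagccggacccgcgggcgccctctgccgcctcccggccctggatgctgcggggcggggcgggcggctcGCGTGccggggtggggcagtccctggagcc
CYP1A1: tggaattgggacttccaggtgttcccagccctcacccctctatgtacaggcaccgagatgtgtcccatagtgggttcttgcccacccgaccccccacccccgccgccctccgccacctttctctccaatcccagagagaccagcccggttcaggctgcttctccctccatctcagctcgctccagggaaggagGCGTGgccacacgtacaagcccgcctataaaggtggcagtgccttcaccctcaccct
NQO1: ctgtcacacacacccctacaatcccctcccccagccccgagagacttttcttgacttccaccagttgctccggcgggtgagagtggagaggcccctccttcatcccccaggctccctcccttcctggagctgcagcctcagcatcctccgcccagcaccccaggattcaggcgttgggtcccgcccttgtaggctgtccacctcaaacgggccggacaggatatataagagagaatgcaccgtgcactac

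The CYP1A1 window held 1 XRE core, 57 to 53 bases before the start, and the first AHRR window held 1, 30 to 26 bases before it. The second AHRR window held 2, and the first of the 3 TIPARP windows held 2 on the other strand. The AHR, ARNT and NQO1 windows held 0. No window of the 6 genes held TGANTCA, and the ARNT window alone held TGACNNNGC, 183 to 175 bases before its start. Among all 35116 RefSeq windows of the same length 32.2% held GCGTG, 6.57% held TGANTCA and 10.9% held TGACNNNGC. A match is a run of letters and no measured binding, and elements farther upstream lie outside these windows.

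Total counts ran from 31104964 to 40526912 per library, and a gene listed at 0 in a library could still have up to 3 counts, or 0.0800 to 0.0895 CPM (counts scaled to a fixed library total), for counting error only. Levels below are CPM scaled by trimmed mean of M-values (TMM), with an SD over the 2 libraries of a group. Reads counted to FOS went from 1.36 and 1.52 CPM in minus Dox to 48.6 and 51.0 CPM in plus Dox, which matches the labels, though these counts do not separate the inserted gene from the FOS locus. The 6 epithelial and A549 markers summed to 8296 and 8447 CPM in minus Dox and 6048 and 5857 CPM in plus Dox. Of the 6, 5 fell (KRT8, KRT18, KRT19, ABCA3 and EPCAM), where 28.4% of all tested genes did, while CDH1 did not pass. KRT8 and KRT18, most of the sum, changed by −0.53 and −0.38 on the log2 scale. The 180 most abundant tested genes had a median of −0.44. KRT19 went from 122 to 21.1 CPM and EPCAM, already low, from 3.49 to 2.12 CPM. The part of this marker shift in the results on AHR pathway genes was not tested. The 4 leukocyte markers summed to 0.148 to 0.341 CPM with CD3E at 0 in every library, the 3 endothelial markers to 0.805 to 1.63 CPM, the 3 hepatocyte markers to 0.119 to 0.178 CPM and the 5 fibroblast markers to 5.60 to 7.19 CPM. In these bulk samples fewer cells with a transcript and less of it per cell cannot be told apart.

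**Figure D1:**
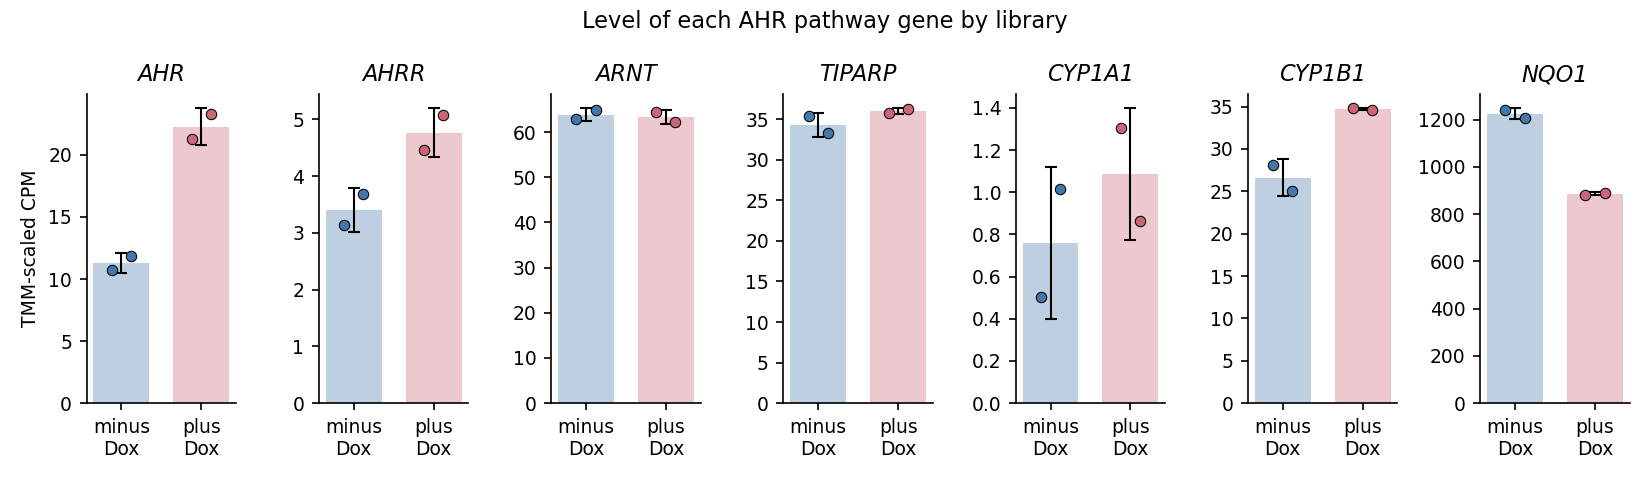
TMM-scaled CPM (y axis, from 0, a scale of its own in each panel) of the 7 AHR pathway genes in the minus Dox and plus Dox groups; points are libraries, bars are means and error bars are the SD (n = 2). AHR, AHRR and CYP1B1 sit higher in both plus Dox libraries and NQO1 sits lower, while the libraries of ARNT and CYP1A1 overlap.

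The 7 genes spanned a wide range of levels. Per kilobase of exon, NQO1 was far the most abundant, at 376 ± 7.31 CPM per kb in minus Dox and 272 ± 1.87 in plus Dox (SD, n = 2). It ranked 59 and 54 from the top among 17974 tested genes with a known length. ARNT followed at 9.81 ± 0.213 and 9.72 ± 0.236 CPM per kb, then TIPARP at 6.80 ± 0.288 and 7.13 ± 0.0750, and CYP1B1 at 4.43 ± 0.363 and 5.77 ± 0.0162. AHR itself was lower than its partner, at 1.40 ± 0.0995 and 2.76 ± 0.182 CPM per kb, a level above 35.8% of tested genes without and 46.8% with doxycycline. AHRR had 0.444 ± 0.0503 and 0.621 ± 0.0563 CPM per kb. CYP1A1, the most used marker of AHR activity, was last, at 0.221 ± 0.105 and 0.316 ± 0.0909. No 2 neighbours in this order had overlapping libraries in either group, and the order was the same with the length of the longest transcript.

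The receptor gene AHR (ENSG00000106546, chromosome 7, 16916359 to 17346152 in hg38 by GENCODE 29) had 10.7 and 11.8 CPM in the minus Dox libraries and 21.3 and 23.3 CPM in the plus Dox libraries. The RefSeq window printed above, at 17298402 to 17298651, lies inside this span, so the RefSeq start is downstream of the GENCODE 29 start. Both plus Dox libraries lay above both minus Dox libraries, with no overlap. The mean went from 11.3 ± 0.804 to 22.3 ± 1.47 CPM (SD, n = 2), or 0.98 on the log2 scale (SE 0.093, edgeR adjusted p = 2.38e-11). Of all tested genes 6.93% rose by at least this much. AHR transcripts have a low GC content, 38.2%, and the 2607 tested genes at or below 40% GC had a median log2 fold change of 0.43, with 2091 above 0. With the trend over GC content, length and abundance removed, AHR lay at 0.57 (edgeR adjusted p = 3.08e-06). A predicted gene on the same strand, ENSG00000283321, shares 29.4% of the exon bases of AHR and is listed at 0 in every library, so reads in the shared bases may be missing from the level of AHR.

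ARNT, the nuclear partner that AHR needs to bind DNA (ENSG00000143437, chromosome 1, 150809705 to 150876768), had 62.9 and 64.9 CPM without and 64.4 and 62.2 CPM with doxycycline. The libraries of the 2 groups overlapped. The log2 fold change was −0.01, with a 95% interval of −0.12 to 0.10, and the adjusted p was 0.854 by the same edgeR test. With library size only in place of TMM, where the median of all tested genes moves to 0.22, ARNT passed as higher at 0.20 (edgeR adjusted p = 0.00145). The level of AHR per kb of exon was 0.137 and 0.147 of that of ARNT in the minus Dox libraries and 0.266 and 0.302 of it in the plus Dox libraries. With the trend over GC content, length and abundance removed, AHR lay at 0.57 and ARNT at 0.08 on the log2 scale. ARNT was the more abundant transcript of the pair in all 4 libraries.

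AHRR, a relative of AHR that competes for ARNT and represses the same elements (ENSG00000063438, chromosome 5, 304176 to 438291), had 3.13 and 3.68 CPM in minus Dox and 4.46 and 5.07 CPM in plus Dox. The groups did not overlap, and the change was 0.48 on the log2 scale (SE 0.169, edgeR adjusted p = 0.0155). This call rests on few reads, 106 to 170 per library, and did not pass in DESeq2 (adjusted p = 0.159), without minus Dox replicate 1 (0.36, edgeR adjusted p = 0.108) or without plus Dox replicate 2 (0.38, 0.133). AHRR also shares 3.18% of its exon bases with PDCD6, which fell by 0.13 on the log2 scale. Per kb of exon the repressor stood at 0.308 and 0.327 of the receptor's level in minus Dox and at 0.221 and 0.229 of it in plus Dox. That ratio was lower in both plus Dox libraries than in either minus Dox library. With the trend over GC content, length and abundance removed, AHRR lay at 0.43 and AHR at 0.57 on the log2 scale. With the trend kept they lay farther apart, at 0.48 and 0.98.

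TIPARP, a mono-ADP-ribosyltransferase that marks AHR for breakdown (ENSG00000163659, chromosome 3, 156673235 to 156706770), had 35.3 and 33.3 CPM in minus Dox and 35.7 and 36.2 CPM in plus Dox. The plus Dox libraries lay just above, but the difference of 0.07 on the log2 scale (95% interval −0.07 to 0.20) had an adjusted p of 0.402 by edgeR. Groups without overlap were common, in 77% of tested genes, and occurred in 5 of the 7 pathway genes. With library size only TIPARP passed as higher, at 0.28 (edgeR adjusted p = 3.84e-04).

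**Figure D2:**
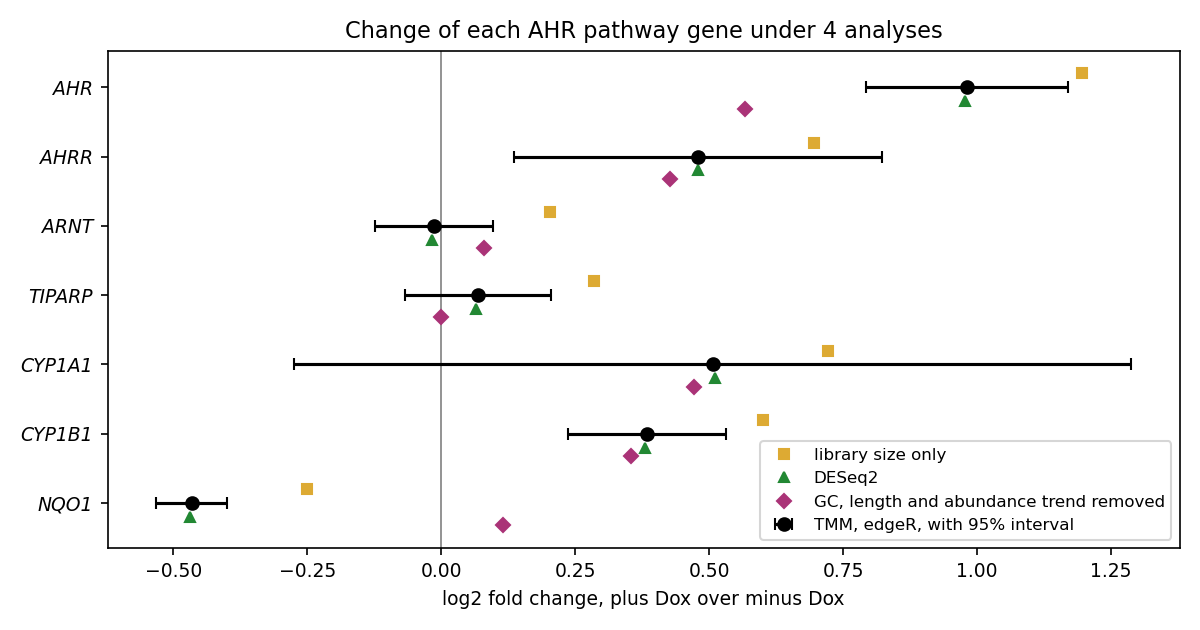
Log2 fold change of plus Dox over minus Dox (x axis) for each AHR pathway gene under 4 analyses; black points carry the 95% interval of the edgeR fit with TMM scaling, and coloured symbols are the alternatives. AHR and CYP1B1 lie above 0 in each, CYP1A1 has the widest interval, and NQO1 lies below 0 except where the trend over GC, length and abundance was taken out, at 0.115.

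CYP1A1, the enzyme whose induction defines a strong AHR response (ENSG00000140465, chromosome 15, 74719542 to 74725610), was barely detected. It had 17 and 38 counts in minus Dox and 46 and 29 counts in plus Dox, or 0.503 and 1.01 against 1.31 and 0.865 CPM. The groups overlapped, and the log2 fold change of 0.51 had a 95% interval of −0.28 to 1.29 and an adjusted p of 0.272 by edgeR. That interval holds both a fall and a rise of over 2-fold, and leaving out 1 library moved the estimate between 0.09 (without minus Dox replicate 1) and 1.10 (without minus Dox replicate 2). Its neighbour CYP1A2, the liver form, had a count of 0 in every library.

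CYP1B1, which oxidises steroids and polycyclic hydrocarbons outside the liver (ENSG00000138061, chromosome 2, 38066973 to 38109902), had 28.2 and 25.1 CPM in minus Dox and 34.8 and 34.6 CPM in plus Dox. Both plus Dox libraries lay above both minus Dox libraries. The mean went from 26.6 ± 2.18 to 34.7 ± 0.0975 CPM (SD, n = 2), or 0.38 on the log2 scale (SE 0.073, edgeR adjusted p = 2.41e-05). It passed in all 11 alternative analyses, from 0.29 to 0.60. The opposite-strand gene CYP1B1-AS1 shares 11.3% of its exon bases and had 1.05 CPM in minus Dox and 0.599 CPM in plus Dox (log2 fold change −0.81, adjusted p = 0.0778 by edgeR). CYP1B1 was the more abundant CYP1 transcript in all 4 libraries, at 31.99 and 14.1 times the level of CYP1A1 per kb in the minus Dox libraries and 15.2 and 22.9 times in the plus Dox libraries.

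NQO1, the quinone reductase (ENSG00000181019, chromosome 16, 69706996 to 69726951), had 1241 and 1208 CPM in minus Dox and 882 and 891 CPM in plus Dox. Both plus Dox libraries lay below both minus Dox libraries. The mean went from 1224 ± 23.8 to 886 ± 6.10 CPM (SD, n = 2), or −0.47 on the log2 scale (SE 0.033, edgeR adjusted p = 9.53e-15). Of all tested genes 14.2% fell by at least this much, and with library size only NQO1 lay at −0.25. The difference ran with abundance: among the 180 most abundant of the tested genes, 1% of them, 172 were below 0 and 8 above, with a median of −0.44, and NQO1 ranked 62 by CPM. Once that trend was taken out along with those over GC content and length, the sign of NQO1 turned, to 0.115 (edgeR adjusted p = 0.00318). The trend was fitted to these same fold changes, so a real change shared by abundant genes is taken out with it. The adjusted p does not include the error of that fit. An opposite-strand gene, ENSG00000261602, covers 17.7% of the exon bases of NQO1 and is listed at 0 throughout.

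**Figure D3:**
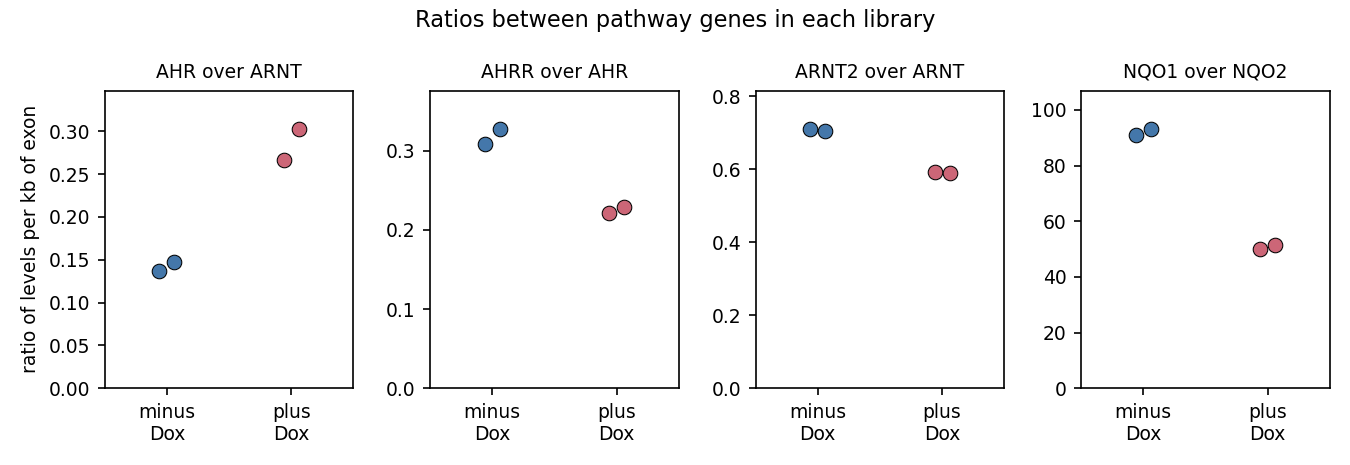
Ratio of levels per kb of exon (y axis, from 0) in each of the 4 libraries (points) for 4 pairs of genes. AHR over ARNT went from 0.137 and 0.147 to 0.266 and 0.302, and the other ratios were lower in both plus Dox libraries. The trend over GC content, length and abundance was not removed from these ratios.

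The genes that hold, activate or degrade the receptor were measured as a list of 15 chaperones and coactivators, all of them tested. Of these 8 rose and 7 fell (8 and 3 when scaled by library size alone, 10 and 3 without the trend), with a median of 0.22 against 0.00 over all tested genes. The share that passed was 100%, where 56.9% of all tested genes passed in either direction. All genes of this list were well counted, the least abundant, STUB1, at means of 41.3 and 35.9 CPM in minus and plus Dox. The share among tested genes of like level was not computed. The steroid receptor coactivator NCOA1 rose by 0.49 on the log2 scale. RB1, the retinoblastoma protein and a reported partner of AHR, rose from 59.2 and 57.0 to 113.1 and 115.5 CPM (log2 fold change 0.98, 0.58 with the trend removed). NCOA3 fell from 248 and 253 to 183 and 190 CPM. The HSP90 gene HSP90AB1 fell by 0.41 on the log2 scale, but it turned to 0.324 with the trend removed.

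Among 16 bHLH-PAS relatives, the transcription factors that share AHR's fold and in part its partner, 12 were tested, 3 rose and 7 fell (4 rose and 4 fell with library size only). Of those tested 83.3% passed, where 56.9% of all tested genes did, 28.4% as higher and 28.4% as lower. The median of the list was −0.25 (−0.03 with library size only). The hypoxia factors HIF1A and EPAS1, which also need ARNT, both fell. HIF1A went from 1075 and 992 to 602 and 581 CPM, at −0.805 on the log2 scale. In minus Dox its mean of 1034 CPM was near the 1224 CPM of NQO1. The 180 most abundant tested genes had a median of −0.44. EPAS1 went from 306 and 325 to 189 and 190 CPM, at −0.73 on the log2 scale (−0.44 with the trend removed). The clock factor NPAS2 fell from 68.9 and 70.5 to 26.8 and 25.6 CPM, and its paralog CLOCK rose by 0.80 on the log2 scale (0.40 with the trend removed). ARNT2, the close relative of ARNT, fell from 53.0 and 54.3 to 45.2 and 43.6 CPM, at −0.27 on the log2 scale, but scaling by library size alone gave −0.06 (edgeR adjusted p = 0.443). Of 16 hypoxia genes that depend on ARNT, all tested, 6 rose and 7 fell, with a median of 0.00. The share that passed was 81.2%, against 56.9% of all tested genes. The collagen prolyl hydroxylase P4HA1 rose by 0.97 on the log2 scale, while the glucose carrier SLC2A1 (355 and 363 to 172 and 174 CPM), the mTOR inhibitor DDIT4 and the carbonic anhydrase CA12 fell, the latter pair by 1.55 and 2.12 on the log2 scale.

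Of 30 other genes reported as AHR targets 24 were tested, 18 fell and 3 rose (14 fell and 3 rose with library size only), where 28.4% of all tested genes fell and 28.4% rose. The median was −0.54 against 0.00 over all tested genes (−0.33 against 0.22 with library size only). The aldehyde dehydrogenase ALDH3A1, a member of the classical AHR gene battery, fell from 716 and 701 to 244 and 243 CPM (log2 fold change −1.54). The growth factor EREG fell from 37.0 and 37.3 to 9.46 and 9.16 CPM and the forkhead gene FOXQ1 from 12.9 and 10.2 to 0.483 and 0.448 CPM. In each of these the groups did not overlap. Several genes of this list, EREG among them, are also known to answer to growth factor and AP-1 signals, and the part of AHR in their change was not tested. The 3 that rose were NFE2L2, the transporter ABCG2 and the cell cycle inhibitor CDKN1B, of which ABCG2 and CDKN1B were named after their values were seen.

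**Figure D4:**
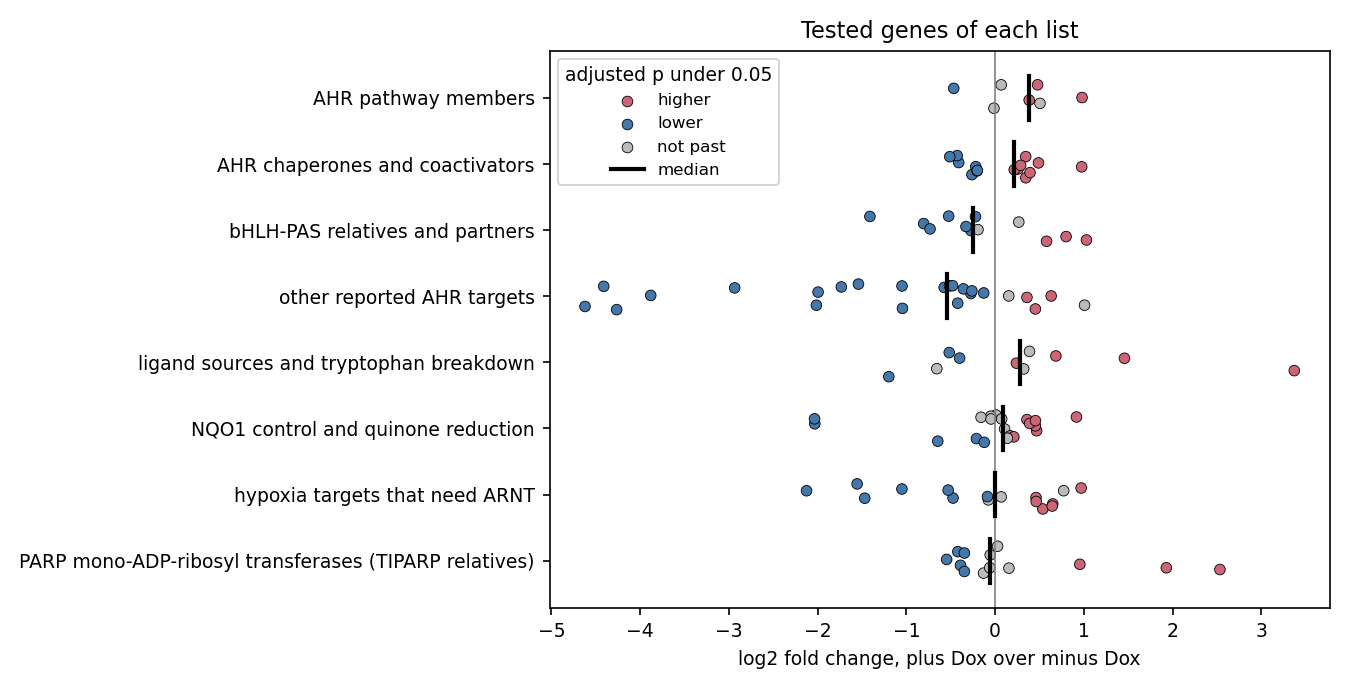
Log2 fold change of plus Dox over minus Dox (x axis) for each tested gene (points, coloured by call at an adjusted p under 0.05) of the AHR pathway and 7 gene lists; the black bar is the median. The other reported AHR targets extend farthest to the left, with a median of −0.54, and the AHR pathway genes have a median of 0.38 (0.10 without minus Dox replicate 1 and 0.18 without plus Dox replicate 1).

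The genes around NQO1 were described by 20 regulators, targets of NRF2 and other reductases, all tested, of which 8 rose, 5 fell and 7 did not pass (14 and 3 when scaled by library size alone, 12 and 3 without the trend). The share that passed was 65%, against 56.9% of all tested genes. NFE2L2, which encodes NRF2, rose from 105.5 and 101.9 to 135.0 and 130.9 CPM, a log2 fold change of 0.36. KEAP1, the adaptor that marks NRF2 for breakdown, fell by 0.21 on the log2 scale, but lay at 0.006 with library size only (edgeR adjusted p = 0.926), and did not pass without plus Dox replicate 1 (−0.16, 0.0672). BACH1, a repressor of the same elements, rose from 19.4 and 18.7 to 36.2 and 35.6 CPM (log2 fold change 0.92, 0.56 with the trend removed). The heme-degrading HMOX1 fell from 389 and 401 to 94.1 and 98.8 CPM, and the aldo-keto reductase AKR1C1, which has close paralogs, fell by 2.03 on the log2 scale. NQO2, the paralog of NQO1, rose from 48.4 and 46.1 to 62.5 and 61.4 CPM, a log2 fold change of 0.39. Per kb of exon NQO1 stood at 91.0 and 93.0 times NQO2 in minus Dox and at 50.2 and 51.6 times in plus Dox. These ratios keep the trend over GC content, length and abundance. The fitted trend of NQO1 was −0.581 on the log2 scale, and NQO1 lay at 0.115 without it.

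Enzymes that make or remove tryptophan-derived AHR ligands moved both ways. Of 16 listed, 10 were tested, 4 rose and 3 fell, where 70% passed against 56.9% of all tested genes. The median was 0.28, which turned to −0.251 with the trend removed. It was 0.15 without minus Dox replicate 2 and 0.07 with no filter on low counts. IDO1, the interferon-induced enzyme that opens the kynurenine route, had a count of 0 in every library, and TDO2, which does the same step, had 2.31 and 1.95 CPM in minus Dox and 2.87 and 2.69 CPM in plus Dox (adjusted p = 0.130 by edgeR). Kynureninase KYNU, which removes kynurenine, fell from 167 and 161 to 71.8 and 71.4 CPM. The aminotransferase KYAT3, which turns kynurenine into kynurenic acid, rose by 0.69 on the log2 scale. KYAT1 and AADAT, which can do the same step, passed as lower, at −0.40 and −0.52 on that scale. KYAT1 and AADAT were named after their values were seen. QPRT, at the end of the route to NAD, went from 1.03 and 0.934 to 9.91 and 10.5 CPM, and the monoamine oxidase MAOA from 7.19 and 5.55 to 18.2 and 16.6 CPM, and both rose by edgeR (adjusted p = 4.47e-18 and 2.50e-13).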

How the data were processed

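The authors deposited raw counts per Ensembl gene in 1 file for each library, not normalized per the file headers. The submitters' processing notes name the build hg38 and, in no stated order, featureCounts 2.0.3, STAR 2.7.10b, cutadapt 4.0, DRAGEN and DESeq2 2.11.40.7. Neither the annotation release nor the strand setting is given in the sources used here, so reads of overlapping and antisense genes cannot be told apart. Symbols came from a table of gene names, and positions, exon lengths and GC content from GENCODE 29 (57447 of 58051 genes). In R 4.3.3, filterByExpr left 18046 genes, TMM factors were 0.926 to 1.079, and group was tested with edgeR 4.0.16 (quasi-likelihood) with Benjamini-Hochberg adjustment. SE is the log2 fold change over the square root of F, and the 95% intervals use it. Alternatives were library size only, RLE factors, DESeq2 1.42.0, no filter, each library left out, a replicate block and a GC, length and abundance trend (mgcv 1.9.3) as offset. The trend was fitted to the log2 fold changes of 17974 tested genes in these same libraries. The code was tested on simulated counts. Counts of the 2 libraries of a group differed by more than sampling noise. Named genes were the members, FOS, JUN, 8 partners by role, the 4 list members with the lowest adjusted p and 3 pattern neighbours each of AHR, CYP1B1 and NQO1. Results of a few of these are not reported here. Members and lists were chosen with earlier results of these data known.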

Additional observations from a re-analysis of the deposited data

How the results depend on the processing

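All 7 AHR pathway genes were refitted under 11 alternatives. AHR (0.566 to 1.196 on the log2 scale) and CYP1B1 (0.29 to 0.60) passed as higher in all 11, AHRR in 8, and CYP1A1 in 0. NQO1 was lower in 9 and turned to 0.115 with the trend over GC content, length and abundance removed, without and with the replicate block, so that 0 pathway genes were lower there. The cause was not tested. Library size only moved the balance of all genes from 5133 higher and 5132 lower to 7865 and 2925 (72.9% higher against 50% with TMM), and the number of pathway genes that were higher to 5. It also turned ARNT to 0.203 and KEAP1 to 0.006. With it the quinone reduction list had 14 higher and 3 lower, the TIPARP relatives 7 and 2, and chaperones and bHLH-PAS relatives had 3 and 4 lower. With the trend removed, both without and with the block, HSP90AB1 turned to 0.324, 3 chaperones and 3 quinone reduction genes were lower, and the median of the tryptophan list turned to −0.251 (−0.245 with the block). Leaving out 1 library left 3 to 5 quinone reduction genes lower and 2 to 3 pathway genes higher. The replicate numbers did not pair the libraries: differences between replicates 1 and 2 had a Pearson r of 0.00226 between the groups across 18046 genes, which are not independent replicates. The replicate block gave 5219 higher and 5195 lower genes and changed no call of a pathway gene. CYP1A1 had 17 to 46 counts per library, with 17 against 38 within minus Dox.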

Other observations

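Relatives of TIPARP moved both ways. Of 14 genes of mono-ADP-ribosylation, which include the macrodomain genes MACROD1 and MACROD2, 13 were tested, 3 rose and 5 fell, with a median of −0.06 (7 rose and 2 fell with library size only). Of those tested 61.5% passed, near the share of all tested genes, 56.9%. PARP11, an interferon-linked ADP-ribosyltransferase, rose from 4.50 and 3.76 to 15.1 and 16.3 CPM, a log2 fold change of 1.93. MACROD2, which removes ADP-ribose, rose by 0.95 on the log2 scale. PARP6 fell from 104.6 and 116.2 to 76.5 and 74.8 CPM, and PARP4, a part of the vault particle, from 181 and 180 to 139 and 136 CPM. TIPARP itself did not pass.

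The genes nearest in pattern were sought among 11243 genes with a symbol and at least 5 CPM on average, by the Euclidean distance of centred log2 CPM over the 4 libraries. Nearest to AHR were HBEGF (distance 0.0507), RP2 (0.0527) and NFATC1 (0.0550), at log2 fold changes of 0.97, 1.00 and 1.01. RP2 lay at 0.53 with the trend over GC content, length and abundance removed. Nearest to CYP1B1 were C18orf25 (0.0117), CD46 (0.0122) and PGM2 (0.0162), at 0.38, 0.37 and 0.38. With that trend removed CD46 lay at 0.18 and PGM2 at 0.14, where PGM2 did not pass (edgeR adjusted p = 0.120). Nearest to NQO1 were RFC4 (0.00579), PLPP5 (0.0111) and ANKRD28 (0.0171), at −0.46 each, with levels from 19.6 to 107.8 CPM as group means against 886 to 1224 CPM for NQO1. With 4 libraries in 2 groups, any gene with a like fold change and a like difference between replicates is near.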
